A study of Bos taurus with 12 samples.

Results

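The complement components examined here are 9 genes of the classical and alternative pathways, C3, C1QA, C1QB, C1QC, C1R, C1S, C2, CFB and CFI, in the mammary gland (MG) of early lactation Holstein cows. They were chosen as components that tissue cells and macrophages can make outside the liver. Their probes were found through the RefSeq accession given with each probe on a bovine Agilent array. This gave 27 probes for 8 genes, of 43653 probes and 12639 named genes on the array. C1R had no probe matched by accession and was not analysed here.

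The 12 multiparous cows were at 24 ± 3 days in milk. Feed for lactation was offered without limit to the 6 CONT cows. Over 4 days, barley straw made up 48% of the dry matter in the feed of the 6 REST cows. On d 3, both groups had 50 µg of lipopolysaccharide (LPS), a bacterial endotoxin, infused into a healthy rear gland of the udder, and a single biopsy was taken 24 h later. All cows thus received LPS, and no array without it was analysed. The sources used here give the infused gland and the time of the biopsy, but not, cow by cow, which gland was sampled. The comparison asks whether the levels of these genes differed between the diets 24 h after LPS.

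Complement is a cascade of plasma and tissue proteins that tags microbes and damaged cells. C1q, a complex of the chains encoded by C1QA, C1QB and C1QC, recognises antibody bound to a target. It carries the proteases C1r and C1s, of which C1s cleaves C4 and C2. In the alternative pathway, factor B (CFB) joins C3b to form the enzyme that cleaves more C3, the protein at which all the routes meet, and factor I (CFI) is the protease that cuts C3b and C4b and so stops them. The liver makes most of the circulating proteins, while C1q comes mainly from macrophages, and fibroblasts, epithelial cells and macrophages make other components under inflammatory signals.

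In the RefSeq table of the ARS-UCD2.0 assembly, several of these genes lie side by side. C1QC and C1QA are neighbours on chromosome 2, with 1 protein-coding gene between C1QC and C1QB. CFB and C2 are neighbours on chromosome 23, and C1R and C1S on chromosome 5. No positions are given, because the array was designed on another assembly.

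All values are log2 signals after the 75th percentile of the array was subtracted, so that 0 is a spot as bright as that percentile and a difference of 1 is a 2-fold change. The 12 arrays sat on 3 slides of 4, with 3 CONT and 1 REST arrays on slide 1, 1 and 3 on slide 2, and 2 of each on slide 3. The 75th percentile itself was 577 to 1184 in CONT and 387 to 1082 in REST, lowest on the array of REST cow 0049. Between 57.6 and 78.1% of the probes were well above background per array, and the number of arrays limits the precision. All 8 measured markers of the mammary epithelium were well above background on every array. So were 7 of 12 genes of a list of proteins secreted by the liver (among them TTR, FGG and HPX), whereas ALB, the gene of serum albumin, was well above background in 1 CONT and 3 REST cows only. Fewer cells of a type and less RNA per cell cannot be told apart in such biopsies.

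No complement gene passed the test for an effect of diet. None of the 27 probes had a Westfall-Young adjusted p below the threshold of 0.05 (all 1), as was true of every probe on the array (Westfall-Young called 0% of them, and Benjamini-Hochberg 0%). None had an unadjusted p under 0.05 either, against 2.62% of all probes. No probe of a complement gene had groups that did not overlap, against 0.128% of all probes. Of the 8 genes, 7 had the lower mean in REST (87.5%), against 56.5% of all named genes, and their median log2 fold change (FC, REST minus CONT) was -0.21 against -0.03. This count depended on single animals and on the slide. Without REST cow 0049, only C1QA and CFI were lower in REST, and 6 of 8 genes had the higher mean there. Without CONT cow 8027, 3 of 8 genes had the higher mean in REST, and 3 of 8 did with slide as a block.

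**Figure D1:**
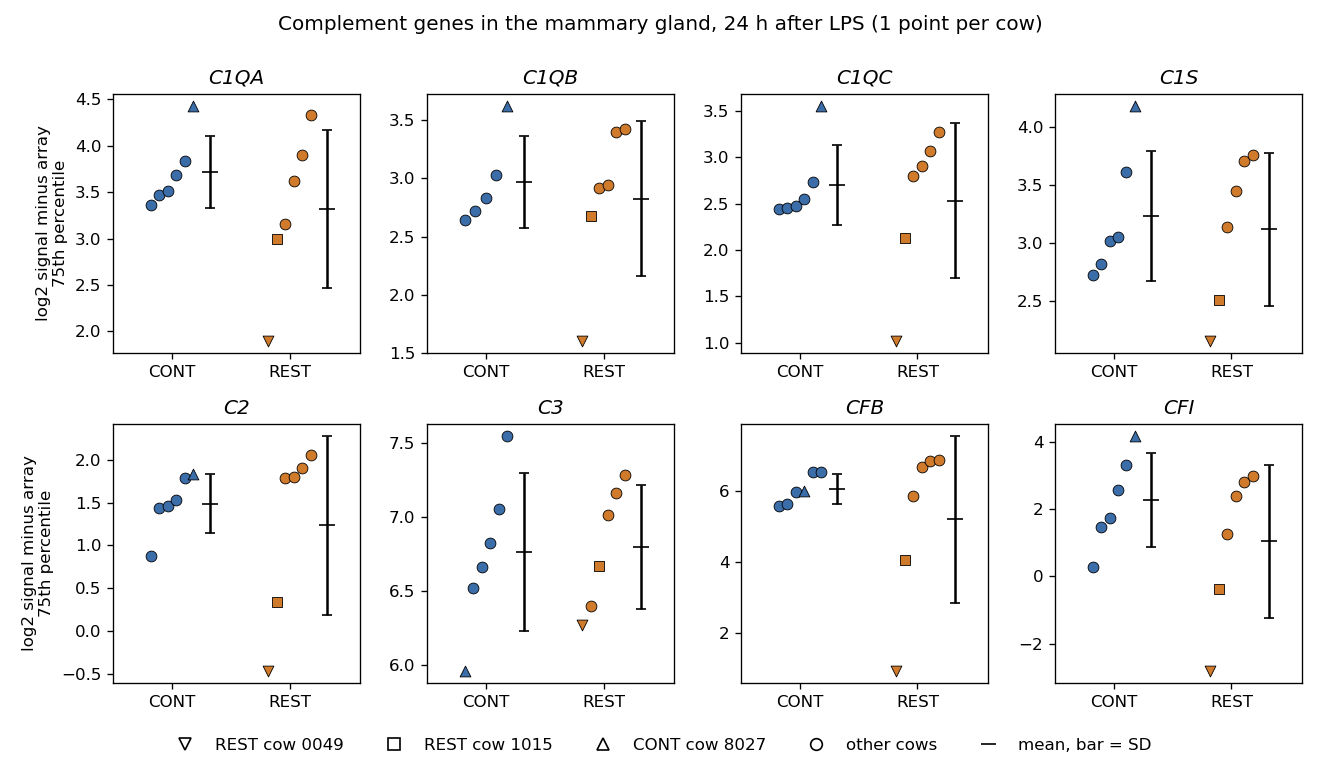
Log2 signal minus the array's 75th percentile (y axis, a scale of its own for each gene) of the brightest probe of 8 complement genes in CONT (blue) and REST (orange) cows, 1 point per cow, with the mean and SD of each group beside the points. CONT and REST overlap in every panel, and REST cow 0049 (downward triangle) lies below all other cows for every gene shown but C3.

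The central component, C3, had the smallest spread of the 8 genes in REST (SD 0.42), though not in CONT (SD 0.53). In CONT cows the log2 signal of its brightest probe (NM_001040469) was lowest at 5.96, with a median of 6.74 and a highest value of 7.55. In REST cows the lowest value was 6.27, the median 6.84 and the highest 7.28. The REST cows lay wholly inside the CONT range. The mean was 6.76 ± 0.53 in the CONT cows (SD, n = 6), and the REST cows (n = 6) averaged 6.80 ± 0.42. The log2 FC was 0.04 (SE 0.27, 95% confidence interval -0.55 to 0.62), and an exact permutation test over cows gave p = 0.896. The 10 probes of C3 gave log2 FC from -0.03 to 0.52, 8 of them above 0, and the interval of each contained 0. The sign of the brightest probe is not settled, since it turned with quantile normalization (-0.05).

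The 3 chains of C1q were close in the groups, with a wider spread in REST. For C1QA (NM_001014945), the CONT cows ranged from 3.37 over a median of 3.60 to 4.43, and the REST cows from 1.89 over 3.39 to 4.33. For C1QB (NM_001046599), the corresponding values were 2.64, 2.83 and 3.63 in 5 CONT cows, because the spot of CONT cow 1024 was marked as an outlier and left out, and 1.60, 2.93 and 3.43 in REST. For C1QC (NM_001206396), they were 2.44, 2.51 and 3.56 in CONT and 1.02, 2.85 and 3.27 in REST. The same 3 cows marked the ends for each chain. CONT cow 8027 was the highest in CONT, REST cow 1058 the highest in REST, and REST cow 0049 the lowest of all.

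The medians of C1QB and C1QC were higher in REST than in CONT while the means were lower, as REST cow 0049 pulled the REST mean down. The log2 FC was -0.40 for C1QA (SE 0.36, exact permutation p = 0.346), -0.14 for C1QB (SE 0.32, p = 0.723) and -0.17 for C1QC (SE 0.36, p = 0.714). Without REST cow 0049 the values were -0.11, 0.10 and 0.13, and without CONT cow 8027 they were -0.26, 0.02 and 0.001. Confidence intervals of the full fit ran from -1.17 to 0.37 for C1QA, from -0.85 to 0.57 for C1QB and from -0.95 to 0.61 for C1QC. The second C1QA probe differed by -0.35.

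The proteases that act after C1q also overlapped between diets. C1S (NM_001076550) had values of 2.72, 3.04 and 4.18 as lowest, median and highest in CONT, and of 2.16, 3.29 and 3.76 in REST. Its log2 FC was -0.12 (SE 0.33, exact permutation p = 0.742, 95% confidence interval -0.83 to 0.60), and its 3 probes ranged from -0.20 to -0.07. C2 (NM_001034492), the substrate of C1s that provides the catalytic part of the C3 convertase, ranged from 0.87 over 1.49 to 1.83 in CONT. In REST it ranged from -0.47 over 1.79 to 2.06. In C2 the REST cows were split, with REST cows 0049 (-0.47) and 1015 (0.34) below every CONT cow and the other 4 between 1.79 and 2.06, at the upper end of the CONT range or above it. The log2 FC of -0.25 (SE 0.42, exact permutation p = 0.615, 95% confidence interval -1.15 to 0.65) averaged over this split, and it was 0.09 without REST cow 0049. The second C2 probe differed by -0.57 (SE 0.66). With slide as a block, the sign of C1S (0.07) and of C2 (0.04) turned.

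The same split was widest in CFB (NM_001040526). The 6 CONT cows lay within 5.57 to 6.54 with a median of 5.98, an SD of 0.42. The REST cows had a log2 signal of 0.94 in cow 0049, 4.07 in cow 1015, 5.85 in cow 1018, 6.66 in cow 0078, 6.84 in cow 7043 and 6.85 in cow 1058, an SD of 2.34. Of these, cows 0078, 7043 and 1058 exceeded the highest CONT cow, and cows 0049 and 1015 lay below the lowest. The log2 FC was -0.84 (SE 0.87, 95% confidence interval -2.73 to 1.06, exact permutation p = 0.500). It was 0.02 without REST cow 0049 and -0.37 (SE 0.94) with slide as a block. All 4 CFB probes had a lower mean in REST, from -0.95 to -0.51, and cow 0049 was the lowest of 12 in each.

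The inhibitor CFI (NM_001038096) varied in both groups. Its log2 signal was 0.27 in CONT cow 0015, 1.48 in cow 9040, 1.75 in cow 1024, 2.57 in cow 1076, 3.33 in cow 0055 and 4.18 in cow 8027. In REST it was -2.83 in cow 0049, -0.38 in cow 1015, 1.25 in cow 1058, 2.39 in cow 1018, 2.81 in cow 7043 and 2.98 in cow 0078. CFI had the most negative log2 FC of the 8 genes, -1.22 (SE 0.98, 95% confidence interval -3.34 to 0.89, exact permutation p = 0.303), but 4 of 6 REST cows lay inside the CONT range. It was -0.45 without REST cow 0049, and the 4 probes ranged from -1.22 to -0.52.

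**Figure D2:**
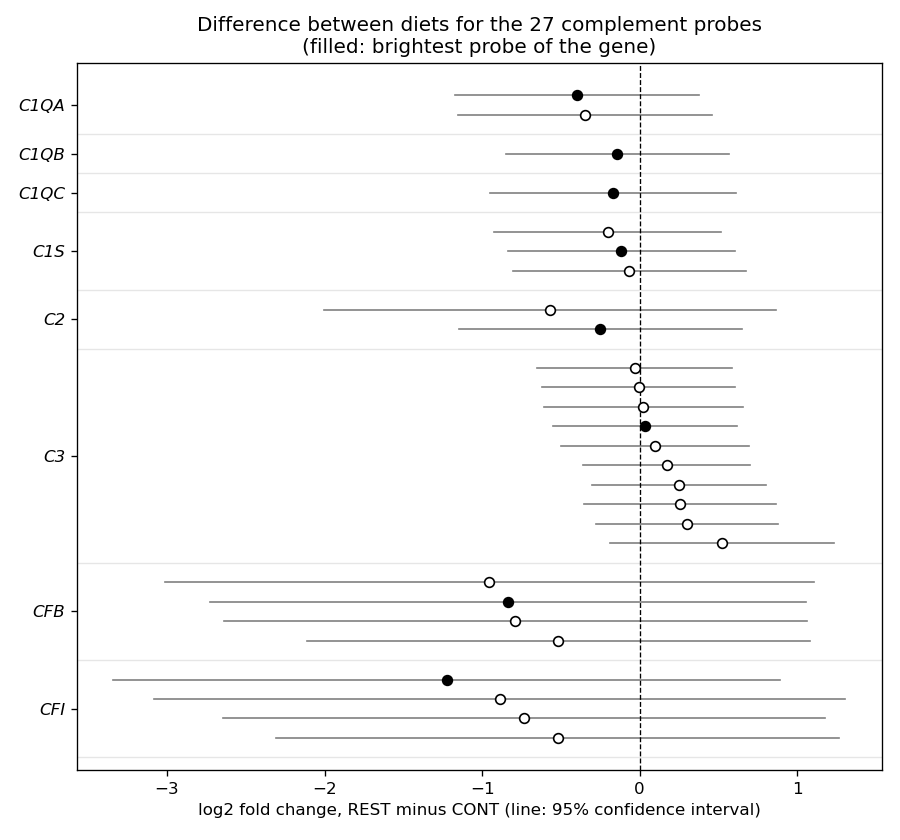
Log2 fold change of REST minus CONT (x axis) with its 95% confidence interval from the limma fit for the 27 probes of 8 complement genes (y axis, grouped by gene), the brightest probe of each gene filled. Every interval contains 0, and the intervals of CFB and CFI are the widest, while the 10 C3 probes lie between -0.03 and 0.52.

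The differences also changed with the slide. Within slide 1, with 1 REST cow against 3 CONT cows (2 for C1QB), all 8 genes had the higher value in REST, by 0.01 for C1QA to 0.64 for CFB. Within slide 2, with 3 REST cows, among them 0049 and 1015, against 1 CONT cow, all 8 were lower, from -0.01 for C3 to -2.59 for CFB. Within slide 3, with 2 cows of each diet, C3 (0.45), C2 (0.57), CFB (0.55) and C1QC (0.03) were higher in REST, and C1QA (-0.31), C1QB (-0.16), C1S (-0.17) and CFI (-0.40) were lower. No test was made within slides. With slide as a block in the limma fit, 3 of 8 genes were higher in REST, C3 with a log2 FC of 0.21 (SE 0.28), and again no member had an unadjusted p under 0.05.

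Some cows differed from the others across several members. This pattern was singled out after the values were seen, and is given as a description without a test. REST cow 0049 had the lowest value for 7 of the 8 genes (of 11 cows for C1QB, otherwise of 12), whereas it was the lowest for 21.0% of the 9000 named genes that were well above background on all 12 arrays, with a value on each. CONT cow 8027, whose array stood farthest from that of cow 0049, was the lowest for 22.1% of these genes but for C3 alone among the 8. CFB in cow 0049 was 33.0-fold below the median of the other 11 cows, and CFI was 37.2-fold below it. The distance was 4.79-fold for C2, 3.30-fold for C1QA, 3.27-fold for C1QC, 2.52-fold for C1QB (10 other cows), 1.98-fold for C1S and 1.47-fold for C3. Thus the levels of the alternative pathway protease and of the inhibitor lay farthest below those of the other cows, and C3 lay nearest to them.

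The low values of cow 0049 recurred in the members with several probes other than C3, while C1QB and C1QC had 1 probe each. The cow had the lowest value in all 17 probes of C1QA, C1QB, C1QC, C1S, C2, CFB and CFI (for the C1QB probe of 11 cows, otherwise of 12), and in 2 of the 10 C3 probes. Quantile normalization left the distance at -5.26 for CFB and -5.45 for CFI on the log2 scale, compared with -5.04 and -5.22 after the percentile shift, and normexp background correction gave -5.13 and -3.93. With quantile normalization the cow was the lowest for C3 too (-0.64). For C2 the distance was -3.03 with the mean over probes, against -2.26 for the brightest probe. REST cow 1015 was the second lowest for 6 of the 8 genes (C1QA, C1QC, C1S, C2, CFB and CFI), the third for C1QB and the sixth for C3.

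Several acute phase genes were also low in cow 0049. Serum amyloid A3 (SAA3), an acute phase protein that the gland itself makes during mastitis, was at 4.44 in this cow, 7.99 in cow 1015 and at a median of 9.18 in CONT. Haptoglobin (HP) was at -3.51 in cow 0049 and -0.27 in cow 1015, against a lowest CONT value of 1.61, and LPS-binding protein (LBP) was at 2.36 and 4.20 against a lowest CONT value of 4.62. Cow 0049 was the lowest of 12 for 4 of 6 acute phase genes that were well above background on all arrays, with a median difference of -4.12 from the other cows. These 4 include both SAA3 and M-SAA3.2, a mammary form of it, while ITIH4 was not low in this cow (-0.61, CONT median -0.77).

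The median differences of the leukocyte and stromal lists were smaller in that cow, and single genes went both ways. Cow 0049 was the lowest for 8 of 12 macrophage markers (median difference -1.21), 6 of 10 fibroblast markers (-1.03), 5 of 9 neutrophil markers (-0.44) and 6 of 11 interferon gamma targets (-0.77). Among the genes lowest in this cow were the macrophage markers TYROBP (-0.38, lowest CONT value 1.19) and SPI1 (-0.07, lowest CONT value 1.66). The neutrophil markers S100A8 (-0.71, lowest CONT value 1.22) and S100A9 (-2.19, lowest CONT value 0.12) and the interferon gamma target IRF8 (-0.80, lowest CONT value 0.16) were so too. Cow 0049 was the highest of 12 for the macrophage markers MSR1 and MERTK, the neutrophil marker ELANE and the interferon gamma targets CXCL10 and PSMB9. CONT cow 0055 had a lower median difference for the 9 neutrophil markers (-0.53). The mean log2 signal over all 11 measured neutrophil markers was nevertheless lowest in cow 0049, at -1.75, against -0.73 to 0.84 in CONT. That mean includes CXCR1 (-6.26 in cow 0049, lowest CONT value -2.14), which was not well above background on every array. Of the 8 markers of the mammary epithelium, cow 0049 was the lowest for the keratins KRT8 (2.40, lowest CONT value 3.68) and KRT18 (0.96, lowest CONT value 2.08). It was the highest for ELF5 and the milk protein genes CSN3 and LALBA, with a median difference of 0.49 over the list. It was the highest of 12 for FABP4 and CIDEA, the 2 adipose markers that were well above background on all arrays (median difference 1.30). The dimmer markers of that list went both ways. LIPE was highest in this cow too, and PLIN1 stood at the CONT median of -5.81. LEP (-5.69, CONT median -3.98) and CIDEC (-4.79, CONT median -3.88) lay below the CONT median. The mean log2 signal over the 12 macrophage markers was 0.73 to 1.58 in CONT and 0.16 to 2.08 in REST, with cow 0049 at the lower end. Over the 10 fibroblast markers it was 1.50 to 2.06 in CONT and 0.64 to 1.98 in REST, again with cow 0049 lowest. All of these 12 macrophage and 10 fibroblast markers were well above background on every array. The part of these cells, of the slide and of the dim array of cow 0049 in its complement values was not tested. Which gland of this cow was sampled is not given in the sources used here.

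**Figure D3:**
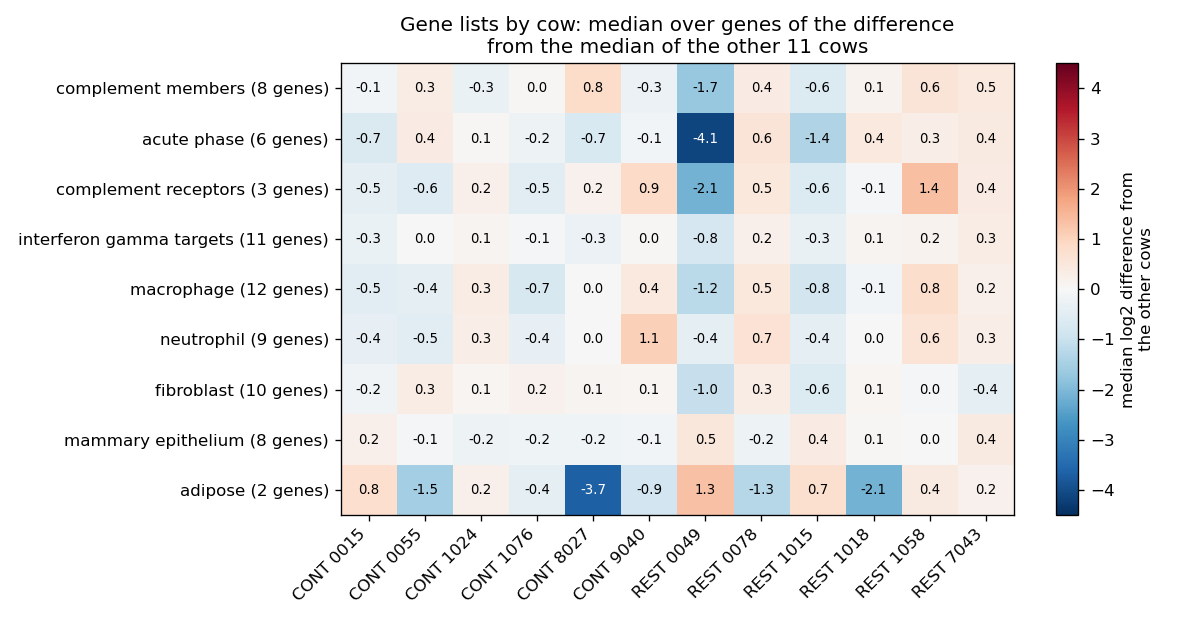
Median log2 difference of each cow from the median of the other 11 cows (colour and number) for 9 gene lists (rows, with the number of genes) in the 12 cows (columns). REST cow 0049 stands at -1.7 for the complement genes, -4.1 for the acute phase genes and 0.5 for the epithelial genes, and REST cow 1015 shows a smaller shift of the same sign in the first 2 lists.

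Between the diets, the fibroblast and acute phase lists had lower medians in REST, and the macrophage list did not. Of the 10 fibroblast markers, 7 had a lower mean in REST (median log2 FC -0.44), and lumican (LUM, -0.84, SE 0.24, exact permutation p = 0.00866), COL1A2 (-0.65, SE 0.27, p = 0.0325) and COL1A1 (-0.72, SE 0.31, p = 0.0649) had an unadjusted limma p under 0.05, without any passing Westfall-Young. With slide as a block, COL1A1 (-0.39, SE 0.28) and COL1A2 (-0.45, SE 0.28) were no longer under that threshold while LUM was (-0.83), and both collagen genes were lowest in REST cow 0049. Of all named genes, 1.01% were lower at that unadjusted threshold. The macrophage markers split evenly, 6 higher and 6 lower, with a median of 0.00. With slide as a block, CD163 was the one macrophage marker under the unadjusted threshold (1.09, SE 0.43), without passing Westfall-Young. Acute phase genes had the lower mean in REST for 6 of 7 (median -0.69, against 56.5% of all named genes lower), none with an unadjusted p under 0.05. The median over cows was nevertheless higher in REST for HP (4.04 against 2.72 in CONT) and LBP (6.03 against 5.72), and with slide as a block the log2 FC of HP (0.24) and LBP (0.30) was above 0.

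Across the 12 cows, the complement genes other than C3 were correlated, in large part through a few cows. Of the 28 pairs of the 8 genes, all 21 without C3 had a Benjamini-Hochberg adjusted permutation p under 0.05 for Pearson's r, which ranged from 0.66 to 0.97. Of all pairs of the 9000 named genes, 6.09% had an r at least as high as the lowest of these. Without REST cow 0049, 8 of the 21 pairs passed, with r down to 0.35, a value that 23.1% of all pairs then reached, and without the 2 cows farthest from the median of the first gene of each pair, 2 of 21 passed. With all cows kept, none of the 7 pairs with C3 passed (r from -0.02 to 0.42, adjusted permutation p 0.232 to 0.950). By Spearman's rho, 10 of the 21 pairs passed, with rho from 0.38 to 0.93.

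The chains of C1q were among the most alike pairs. C1QB and C1QC had r = 0.97 and rho = 0.93 over 11 cows (permutation p = 3.0e-05 for r, adjusted p = 0.000700), and r = 0.87 remained without the 2 cows farthest from the C1QB median. C1QA and C1QC had r = 0.94 and rho = 0.81 over 12 cows (adjusted permutation p = 0.000700 and 0.0121), and r = 0.76 over 10 cows. C1QA and C1QB had r = 0.94 and rho = 0.86, and r = 0.77 over 9 cows. These 3 pairs also passed without REST cow 0049 (r = 0.92, 0.84 and 0.85). Without the 2 farthest cows, C1QB and C1QC passed (adjusted permutation p = 0.0246), and C1QA with C1QC (0.0551) and with C1QB (0.0609) did not.

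The neighbouring genes C2 and CFB had r = 0.94 and rho = 0.80 (adjusted permutation p = 0.000700 and 0.0121), with r = 0.86 without REST cow 0049 and 0.63 without the 2 cows farthest from the C2 median, where it no longer passed (adjusted permutation p = 0.0876). CFB and CFI had r = 0.83 but rho = 0.48 (adjusted permutation p = 0.00816 and 0.161), and r fell to 0.14 when the 2 farthest cows were left out, so that this relation rested on those cows. Over the 21 pairs, r without the 2 farthest cows ranged from 0.05 to 0.87, and without REST cow 0049 alone from 0.35 to 0.92. The range was 0.50 to 0.97 after values were centred on slide means and 0.66 to 0.97 after centring on diet means. A slide holds 4 cows, too few for a coefficient within slides.

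C3 behaved otherwise when the cows at its ends were set aside. Its r with C1QA was 0.33 over 12 cows (adjusted permutation p = 0.359) and 0.82 over the 10 cows without CONT cows 1076 and 8027 (adjusted permutation p = 0.0246), which held the highest and the lowest C3. Over the 7 pairs with C3, r without the 2 farthest cows ranged from 0.54 to 0.82, and this was the sole pair of them to pass. Without REST cow 0049, r of C3 with C1QA was 0.09, and the 7 pairs ranged from -0.27 to 0.24 with 0 passing.

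**Figure D4:**
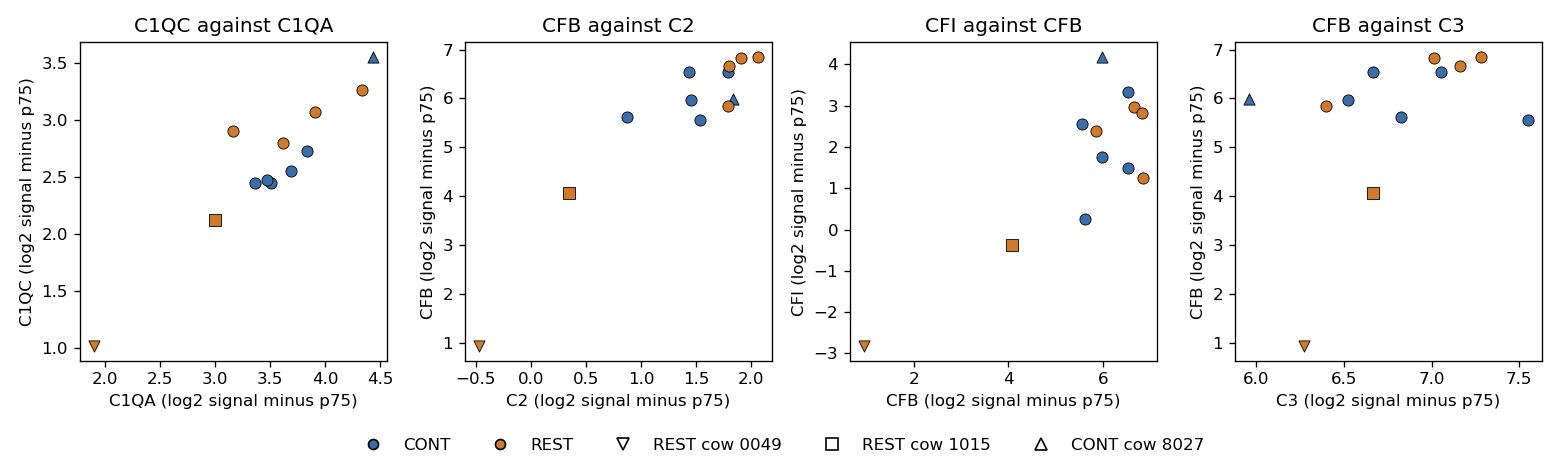
Log2 signal minus the array's 75th percentile (p75) of 4 pairs of complement genes, 1 point per cow, CONT in blue and REST in orange, with REST cows 0049 and 1015 and CONT cow 8027 marked by shape. C1QC against C1QA shows r = 0.94 (0.76 without CONT cow 8027 and REST cow 0049), CFI follows CFB mainly through cows 0049 and 1015 (r = 0.83, 0.14 without those 2 cows), and CFB against C3 shows r = 0.42.

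The genes whose levels followed each member most closely over the cows differed between members, in a search of 9000 named genes (r over 12 cows, or 11 for C1QB, given without a test). For C1QA they were C1QC (0.94), the matrix proteoglycan decorin (DCN, 0.90) and the lymphocyte activation antigen CD69 (0.90). For C1QB they were C1QC (0.97), C1QA (0.94) and SDHAF2 (0.91), and for C1QC they were C1QA (0.94), CD69 (0.94) and the immune receptor HAVCR2 (0.92). C1QB itself, whose spot in CONT cow 1024 was left out, was not among the genes searched. Its r with C1QC (0.97) and with C1QA (0.94) was higher than that of any gene given for those members. C1S was most like STMN1 (0.98), the T cell kinase LCK (0.96) and SPSB1 (0.96).

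C2 was closest to the costimulatory molecule CD86 (0.99), ABHD12 (0.98) and LEPROT (0.97). CFB was closest to SAA2 (0.97), the proteasome activator subunit PSME2 (0.96) and M-SAA3.2 (0.96), a mammary form of serum amyloid A3. CFI was closest to TNF (0.97), the heme synthesis enzyme ALAS1 (0.97) and YEATS2 (0.97). C3 had the loosest companions, MXD4 (0.83), DUS2 (0.79) and TM4SF18 (0.78). Without REST cow 0049, r fell to 0.87 for CFB with SAA2 and was 0.95 for CFI with TNF and 0.97 for C2 with CD86. It fell further for C1QA with CD69 (0.73) and DCN (0.80), C1QB with SDHAF2 (0.81) and C1QC with CD69 (0.83).

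The remaining complement genes showed no common direction. Of 58 listed genes, 44 were measured and 24 were well above background on every array of a group. Of the 44, 20 were higher and 24 lower in REST (54.5% lower, median log2 FC -0.03), close to the 56.5% of all named genes. MASP1, a protease of the lectin pathway, was the only one with an unadjusted p under 0.05 in the percentile-shifted data of all 12 cows (1.63% of named genes were higher at that threshold). Its log2 signal was 0.21, 1.56 and 2.09 as lowest, median and highest in CONT and 1.72, 2.09 and 3.49 in REST, a log2 FC of 0.88 (SE 0.36, exact permutation p = 0.0238, Westfall-Young adjusted p = 1). With slide as a block it was 0.74 (SE 0.38) and no longer under that threshold, nor was it without CONT cow 8027, the lowest of 12, and C8B (1.09, SE 0.44), which was not well above background on every array of either group, was the one gene under it with that block. REST cow 0049, the lowest for most members, was the highest of 12 for MASP1.

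Within the classical and lectin routes, C4A, which is cleaved by C1s together with C2, had a log2 FC of 0.44 (SE 0.35, exact permutation p = 0.262). Of the alternative pathway, factor D (CFD), which cleaves factor B, had 0.46 (SE 0.23, exact permutation p = 0.0693), and properdin (CFP), which stabilises the convertase, 0.18 (SE 0.58). Neither passed. Of the terminal pathway, which builds the pore in the target membrane, C6 and C7 had 0.41 (SE 0.38) and 0.25 (SE 0.31), and the other 4 measured genes were not well above background on every array of either group.

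Among soluble regulators, C4BPA, the binding protein that acts with factor I on C4b, ranged from -2.03 to 2.56 in CONT and from -4.06 in cow 0049 to 3.29 in REST (log2 FC -0.44, SE 1.20), and CPN2 had 0.30 (SE 0.43). Among membrane regulators, C1QBP had -0.25 (SE 0.20), and CD59, which blocks the pore, -0.21 (SE 0.19). The receptors VSIG4, which binds C3b on macrophages, and C3AR1, the receptor of C3a, had 0.38 (SE 0.51) and -0.11 (SE 0.44). Both receptors were lowest in cow 0049, at -3.01 and -3.30, below the lowest CONT values of -1.95 and -1.76. Over the 23 of these genes that were well above background on all arrays, with a value on each, cow 0049 was the lowest for 14 (60.9%). Of the named genes under the same filter, it was the lowest for 21.0%. The filter leaves out genes that were dim in any cow. Of those, cow 0049 was the lowest for C5AR1, C5AR2 and CD55, but not for others such as CGN1 and C5.

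**Figure D5:**
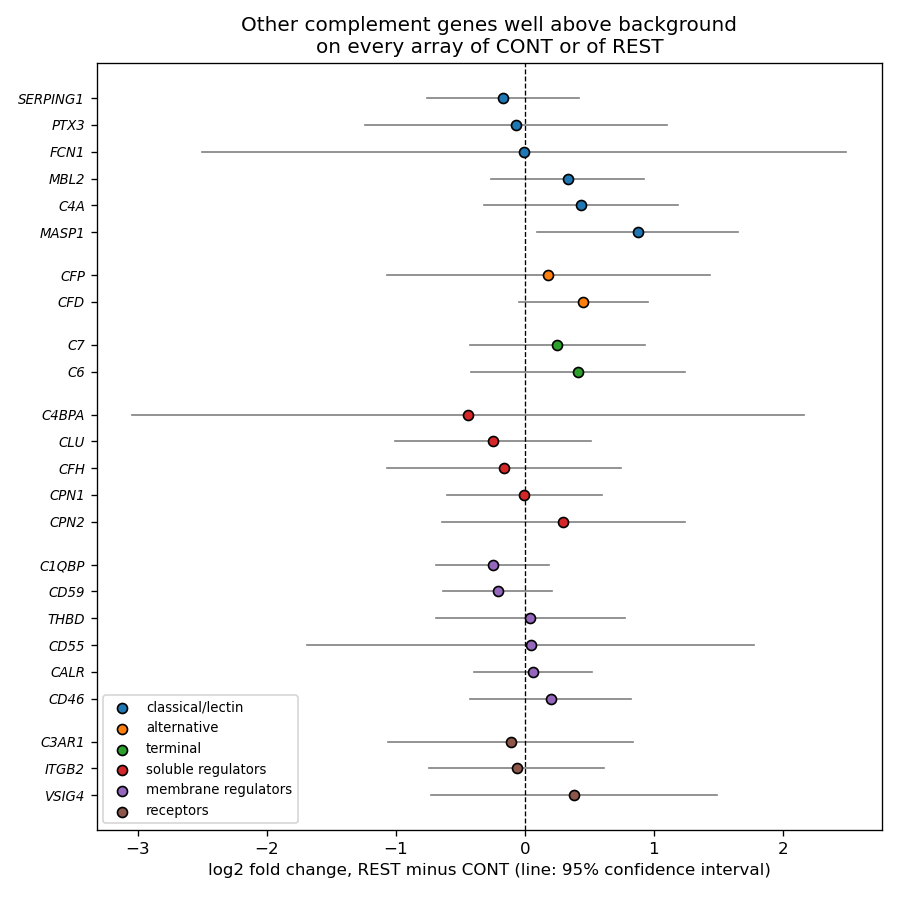
Log2 fold change of REST minus CONT (x axis) with its 95% confidence interval from the limma fit for the 24 other complement genes that were well above background on every array of CONT or of REST (y axis), coloured by role. MASP1 (0.88) is the one gene whose interval leaves out 0.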

How the data were processed

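Total RNA (100 ng per cow) from the biopsies of 6 CONT and 6 REST cows was labeled with Cy3 and hybridized to 1 Agilent array per cow, without pooling. The deposited intensities come from the Feature Extraction software (11.0.1.1) of the authors, which subtracted background and detrended each array, and they are not scaled between arrays. In the value table of the series the authors gave identical intensities (difference 0).

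From these, control spots were removed, outlier spots were treated as missing, each array's 75th percentile was subtracted from the log2 intensity, and replicate spots were averaged per probe. Probes were named by RefSeq accession without version, and the brightest probe stands for a gene. REST and CONT were compared with limma 3.58.1 (R 4.3.3; lmFit, eBayes, two-sided) over all 43653 probes, with Westfall-Young step-down adjustment over 100 splits of the cows (lowest possible adjusted p 0.01) and Benjamini-Hochberg beside it, threshold 0.05. The exact permutation tests enumerated every split (smallest possible p 0.00216). Correlations used 100000 permutations, adjusted over 28 pairs (NumPy 2.4.6; plots, matplotlib 3.10.9). The scripts were checked on simulated data with known changes. The genes named are all members, in each list of other complement genes those with an unadjusted p under 0.05 and the 2 with the largest change among those well above background on every array of a group, marker genes with an unadjusted p under 0.05 (at most 3 per list), and the 3 genes most alike to each member. Single genes named besides these (SAA3, HP, LBP, ITIH4, C8B, CD163, MSR1, MERTK, TYROBP, SPI1, ELANE, S100A8, S100A9, CXCR1, CXCL10, PSMB9, IRF8, C5AR1, C5AR2, CD55, CGN1, C5, and genes of the epithelial, liver and adipose lists) were chosen after their values were seen, and REST cow 0049 likewise. The members and lists were chosen with earlier results of these data known. The alternatives are quantile normalization, normexp (offset 50, on median spot signals), the authors' table, a filter on dim probes, outlier spots kept, slide as a block or within slides, an intensity trend, the mean over probes, and leaving out each cow. No sequences of probes, promoters or proteins were used here.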

Additional observations from a re-analysis of the deposited data

Results flagged for a closer look

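In 46 groups of cows (the 8 measured members and the named other complement and marker genes, in each diet), 3 had a cow whose gap to its nearest neighbour was large for the range of the group, where chance gives about 2.3. CONT cow 8027 stood at 3.56 for C1QC, above the other 5 CONT cows at 2.44 to 2.73. The same cow stood at 0.21 for MASP1, below the other CONT cows. CONT cow 0055 stood at 3.17 for CD59, below the others of its group. The low values of REST cow 0049 for CFB and CFI did not meet this criterion, and REST cow 1015 was the nearest cow in both.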

How the results depend on the processing

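No alternative gave a member, or any probe, past the Westfall-Young or Benjamini-Hochberg threshold, and none gave a member an unadjusted p under 0.05. The number of members with the higher mean in REST, 1 of 8, was 0 with quantile normalization, 3 with slide as a block and 0 to 6 when a cow was left out, with 6 without REST cow 0049 and 3 without CONT cow 8027. The sign turned for C3 with quantile normalization (-0.053), and for C1S (0.073) and C2 (0.038) with slide as a block. Within slide 1 it turned for C1QA (0.013), C1QB (0.21), C1QC (0.25), C1S (0.59), C2 (0.21), CFB (0.64) and CFI (0.43), within slide 2 for C3 (-0.014), and within slide 3 for C1QC (0.034), C2 (0.57) and CFB (0.55). Leaving out a cow gave log2 FC of -0.12 to 0.19 for C3, -0.26 to 0.10 for C1QB, -0.32 to 0.13 for C1QC, -0.24 to 0.077 for C1S, -0.41 to 0.093 for C2 and -1.17 to 0.017 for CFB, and kept C1QA (-0.60 to -0.11) and CFI (-1.62 to -0.45) below 0. The median of the other complement genes, -0.03, turned to 0.046 with the filter on dim probes, 0.19 with slide as a block, 0.023 with the mean over probes, and was -0.11 to 0.18 over the cows left out. MASP1 was not under the unadjusted threshold with slide as a block (0.74, where C8B was, at 1.09) or without CONT cow 8027, when no other complement gene was. The count of such genes, 1, was 2 with quantile normalization and without CONT cows 9040 or 1076 or REST cow 1058. The correlation of C3 with CFI ranged from -0.11 to 0.57 over the cows left out, with the negative value without REST cow 0049, and was 0.45 with quantile normalization, which also gave 0.58 for C3 with CFB (adjusted permutation p = 0.0518), while normexp gave 0.55. The cause of these shifts was not tested. All brightest probes of the members were well above background on 12 arrays, and 6 cows per group leave intervals as wide as that of CFI.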
